A study of Homo sapiens with 9 samples.

Results

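The ATF4 amino acid stress response genes were followed in H2030 cells, a human line grown from a non-small cell lung cancer, after siRNA transfection. The list holds 45 genes, chosen by name as ATF4 and its reported targets, enzymes of amino acid synthesis, amino acid transporters and cytosolic tRNA synthetases. The choice was made with earlier results of these data known, so counts over the list are not independent of it. All 45 were found by symbol among the 29972 genes of the deposited table. Of these, 43 had a mean of at least 0.5 scaled TPM (TPM, a length-corrected share of the transcripts of a library, divided by a size factor per library) and entered the tests. PSAT1 and ALDH1L2 did not.

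Cells received 20 nmol/L of siRNA with a lipid reagent in every group. The siMENA11a group received a mix of 3 siRNAs directed at exon 11a of ENAH, the siMENA group a commercial pool directed at ENAH irrespective of isoform, and the control group a non-targeting pool from another product line of the same supplier. ENAH encodes hMENA, an actin regulator, and exon 11a marks its epithelial isoform hMENA11a. Each group has 3 libraries, with the same replicate numbers in every group, and what a number shares is not stated. Whether the libraries are separate cultures is not stated, so p-values reflect the spread among these 9 libraries alone, and that spread may be technical.

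ATF4 is a transcription factor of the integrated stress response. When eIF2 kinases sense amino acid lack, misfolded protein, double-stranded RNA or haem shortage, general translation slows while ATF4 mRNA is translated better. ATF4 with C/EBP partners then raises the transcription of genes for amino acid synthesis, amino acid uptake and tRNA charging. It also raises that of feedback genes such as TRIB3. Tumour cells rely on this programme when nutrients are short.

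The libraries were described by their size factors, which were 0.886 to 0.973 in siMENA11a, 1.06 to 1.09 in siMENA and 0.995 to 1.04 in control. RN7SL transcripts took 44.3% to 45.2% of the TPM in siMENA11a, 39.6% to 40.6% in siMENA and 39.7% to 41.1% in control. ENAH was at 6.89, 7.30 and 7.48 scaled TPM in siMENA libraries, against 43.6, 43.2 and 44.7 scaled TPM in control libraries. In siMENA11a libraries it was at 46.7, 47.5 and 48.7 scaled TPM, called higher than in control (log2 fold change 0.12, limma adjusted p = 0.0247). That value is a sum over isoforms that cannot check the loss of exon 11a. The siMENA11a group is named a knockdown below by its siRNAs alone. Of 6 epithelial markers, KRT8, KRT18, KRT7 and EPCAM were expressed, while CDH1 and KRT19 stayed at or near 0 in all groups. The summed level of 6 leukocyte markers was 1.62 to 2.27 scaled TPM in siMENA11a, 0.852 to 1.03 in siMENA and 1.29 to 1.32 in control, nearly all of it CD14, and CD3E was listed at 0 in all 9 libraries. That of 6 fibroblast markers was 6.86 to 7.05, 14.0 to 15.7 and 7.71 to 8.57 in the same order, nearly all of it COL1A1. For 4 endothelial markers the ranges were 0.550 to 0.587, 0.973 to 1.18 and 0.513 to 0.672. The part of these markers in the results below was not tested. In bulk RNA, fewer cells of a kind and less RNA per cell cannot be told apart.

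After siRNA against exon 11a most of the stress response genes rose, and after siRNA against all isoforms more of them fell than rose. For siMENA11a against control, 26 of the 43 tested genes were called higher, 7 lower and 10 were not called (limma, Benjamini-Hochberg adjusted p under 0.05 over 13498 genes). Among all tested genes 27.9% were called higher and 27.7% lower. The median log2 fold change was 0.22 over the listed genes and 0.01 over all tested genes. For siMENA against control, 6 were called higher, 22 lower and 15 not, where 23.7% of all genes were called higher and 25.8% lower, and the medians were -0.15 and 0.01. The direct comparison of siMENA11a with siMENA called 28 higher and 7 lower, against 29.5% and 29.2% of all genes, with medians of 0.38 and 0.00.

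Changes of at least 0.5 on the log2 scale were fewer. For siMENA11a against control 11 genes rose and 1 fell by that much, for siMENA against control 2 rose and 6 fell, and for siMENA11a against siMENA 19 were higher and 1 lower. Over all tested genes, 16.3%, 12.8% and 20.9% were called with a change of that size in these 3 comparisons. Values of the groups compared were without overlap for 34 of the 43 genes in the first comparison, 32 in the second and 36 in the third, and for 62.9%, 57.6% and 65.1% of all genes.

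The counts moved with the scaling of the libraries. In TPM as deposited, without size factors, the median log2 fold change of all genes was -0.11 for siMENA11a against control, 0.09 for siMENA against control and -0.20 for siMENA11a against siMENA, and the changes on that scale are to be read against these shifts. On that scale 18 listed genes were higher and 8 lower for siMENA11a, 8 higher and 16 lower for siMENA, and 21 higher and 9 lower between the knockdowns. Over all 13476 genes tested on that scale, 1965 were higher and 4904 lower for siMENA11a. The counts were 3979 and 2300 for siMENA, and 2030 and 6321 between the knockdowns. When small and structured RNAs were removed and TPM rescaled, the medians of all genes were 0.09, 0.11 and -0.02, and the listed genes counted 29 higher and 2 lower for siMENA11a, 11 higher and 17 lower for siMENA, and 28 higher and 7 lower between the knockdowns. Of all 14618 genes tested there, 4978 were higher and 2916 lower for siMENA11a. The counts were 4802 and 2462 for siMENA, and 3869 and 4254 between the knockdowns. Counts of listed genes, also those by role given below, are to be read beside those of all genes.

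Both knockdowns were set against the same 3 control libraries, so their calls are given side by side and each is a comparison of its own. The shares of all tested genes with the same pairs of calls were not counted, so the pairs have no background here. ATF4, ATF3, NUPR1, VLDLR, CBS, PCK2, SLC7A11, SLC1A4, SLC1A5, AARS, SARS, WARS, YARS, TARS and CARS were called higher under siMENA11a and lower under siMENA. DDIT3, SESN2, DDIT4, PHGDH, ASNS, SLC3A2, GARS and EPRS were called higher under siMENA11a only, which does not by itself show a difference. The direct comparison called all 8 of them higher in siMENA11a than in siMENA, though not DDIT4, SLC3A2, GARS and EPRS in TPM as deposited. CHAC1, GDF15 and CTH were called higher under both knockdowns, and CEBPG, STC2, SHMT2, MTHFD2 and NARS lower under both. Calls of some genes in these lists ended under other settings, given with each gene below. SLC7A5 was lower under siMENA11a and higher under siMENA. CEBPB, EIF4EBP1, PSPH, GPT2, IARS and XPOT were called in neither comparison with control.

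**Figure D1:**
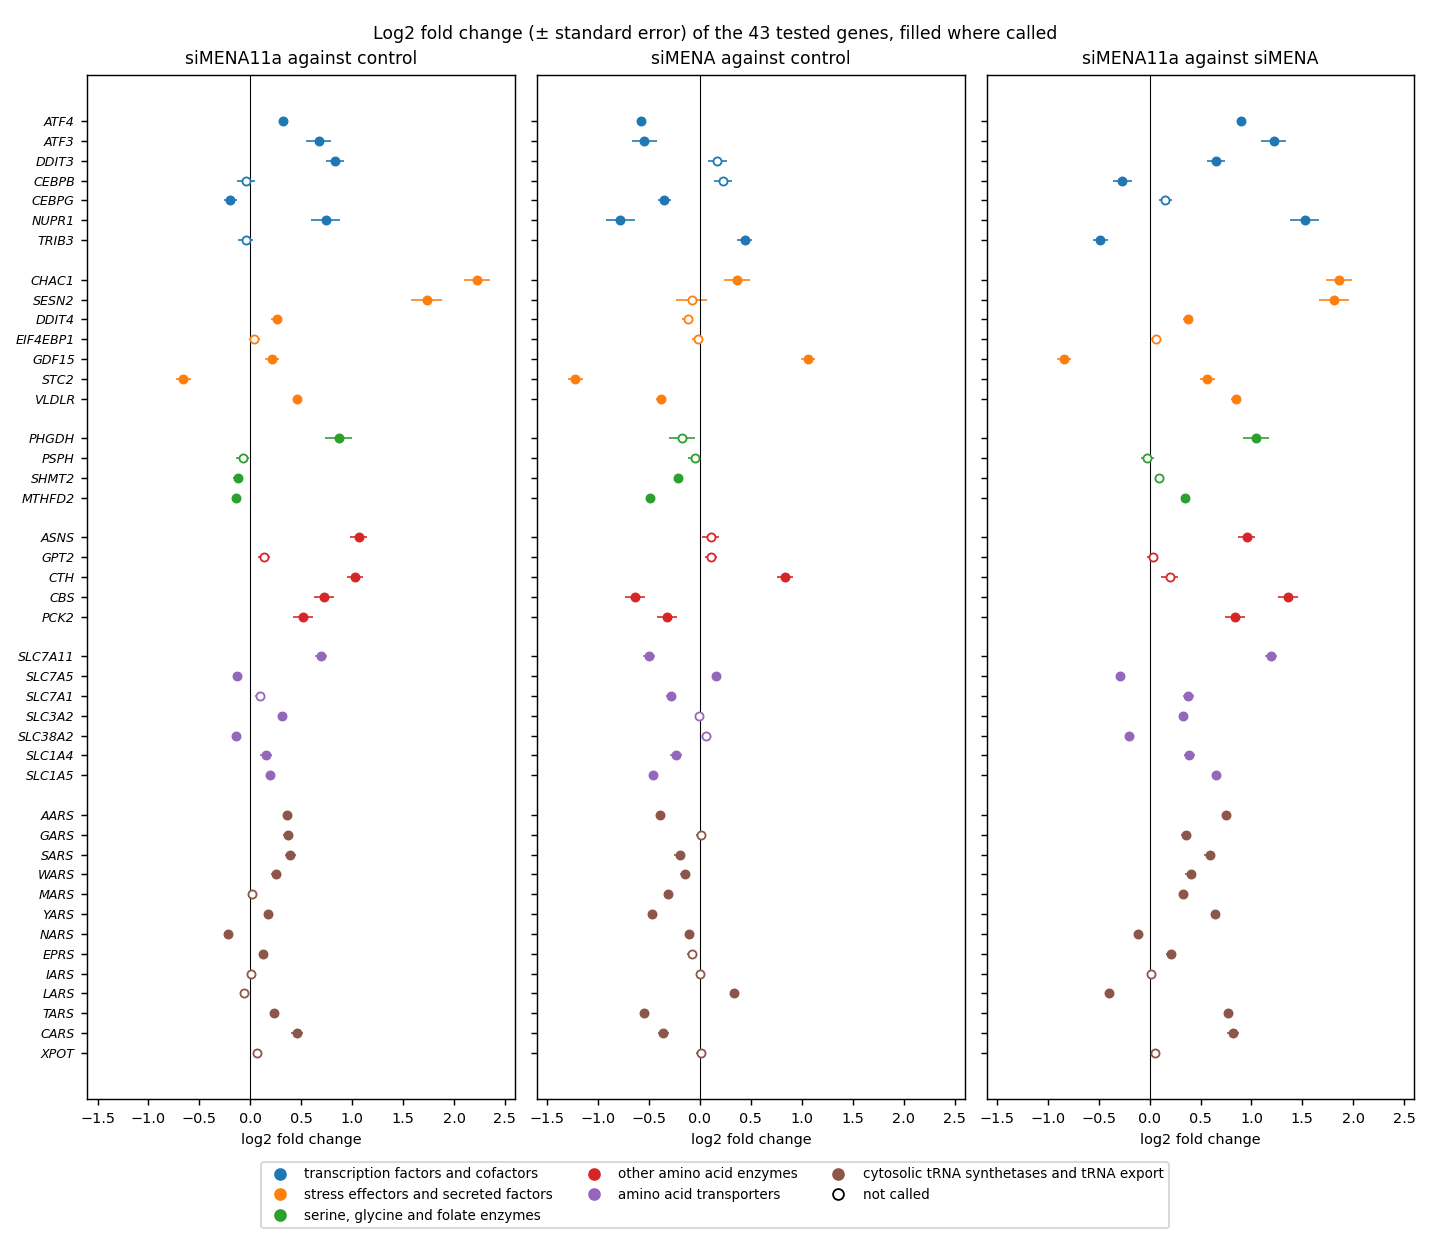
Log2 fold change (x axis, ± standard error) of the 43 tested genes, grouped and coloured by role, in 1 panel for each knockdown against control and 1 for siMENA11a against siMENA, with filled points where the gene was called and open points where it was not. In the left panel 26 filled points lie right of 0, with CHAC1 farthest, in the middle panel 22 lie left of 0, and in the right panel 28 lie right of 0.

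ATF4 itself was among the more abundant of the listed transcripts. It stood at 162, 169 and 178 scaled TPM in siMENA11a libraries, at 88.3, 93.6 and 90.5 in siMENA libraries, and at 134, 132 and 141 in control libraries. The 3 groups did not overlap, with siMENA11a highest and siMENA lowest. ATF4 rose by 0.32 ± 0.041 on the log2 scale under siMENA11a (standard error; limma adjusted p = 0.000142), while its log2 fold change under siMENA was -0.58 ± 0.041 (adjusted p = 4.61e-06). The direct difference, siMENA11a over siMENA, was 0.90 ± 0.041 (adjusted p = 1.51e-07). Because ATF4 is controlled largely in translation, its transcript level does not give its protein level.

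Of the 7 transcription factors and cofactors with ATF4, 4 were called higher and 1 lower under siMENA11a (median log2 fold change 0.32), and 1 higher and 4 lower under siMENA (median -0.35). ATF3, a stress-induced repressor and activator of the same family, was at 4.80, 6.06 and 5.90 scaled TPM in siMENA11a, 2.14, 2.42 and 1.79 in siMENA, and 3.51, 3.64 and 2.82 in control. Its libraries were also ordered siMENA11a, control, siMENA without overlap, with log2 fold changes of 0.67 ± 0.12 under siMENA11a (adjusted p = 0.0014) and -0.55 ± 0.12 under siMENA (adjusted p = 0.00527). NUPR1, a small chromatin-associated stress protein, was at 7.18, 9.47 and 9.81 scaled TPM in siMENA11a, 2.83, 3.29 and 2.13 in siMENA, and 4.92, 5.32 and 4.88 in control. It rose by 0.74 ± 0.14 and fell by 0.78 ± 0.14 on the log2 scale (adjusted p = 0.00177 and 0.00154), and was 1.52 ± 0.14 higher in siMENA11a than in siMENA.

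DDIT3 encodes CHOP, a C/EBP-related factor of prolonged stress. It was at 13.8, 16.8 and 17.6 scaled TPM in siMENA11a libraries, 9.87, 10.3 and 9.69 in siMENA libraries, and 9.44, 8.89 and 8.04 in control libraries. The siMENA11a libraries lay above both other groups, and the rise was 0.83 ± 0.089 on the log2 scale (adjusted p = 4.47e-05), while under siMENA the log2 fold change of 0.17 ± 0.089 was not called (adjusted p = 0.138), except without small RNAs in the scaling (0.28, adjusted p = 0.032). TRIB3, a pseudokinase that restrains ATF4, moved against ATF4 under siMENA. It was at 10.8, 12.5 and 12.4 scaled TPM in siMENA11a, 15.1, 17.8 and 17.7 in siMENA, and 11.9, 12.1 and 12.8 in control. Its siMENA libraries stood above all others, with a rise of 0.44 ± 0.075 (adjusted p = 0.00105), and the siMENA11a value of -0.05 ± 0.075 was not called (adjusted p = 0.633). CEBPG, a dimer partner of ATF4, averaged 10.03 ± 0.681 scaled TPM in siMENA11a, 8.95 ± 0.516 in siMENA and 11.5 ± 0.488 in control (SD, n = 3 each), and was called lower under both knockdowns, though under siMENA11a (-0.20) not in TPM rescaled without small RNAs (-0.12) and not without control 1, siMENA11a 1 or siMENA11a 2. CEBPB, another partner of ATF4, was called in neither comparison with control, at 0.23 ± 0.092 under siMENA (adjusted p = 0.0688). Under 3 other scalings it was called higher under siMENA (0.31 to 0.33, adjusted p of 0.0114 to 0.0379), as also with the replicate block (adjusted p = 0.00833) and without control 3.

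**Figure D2:**
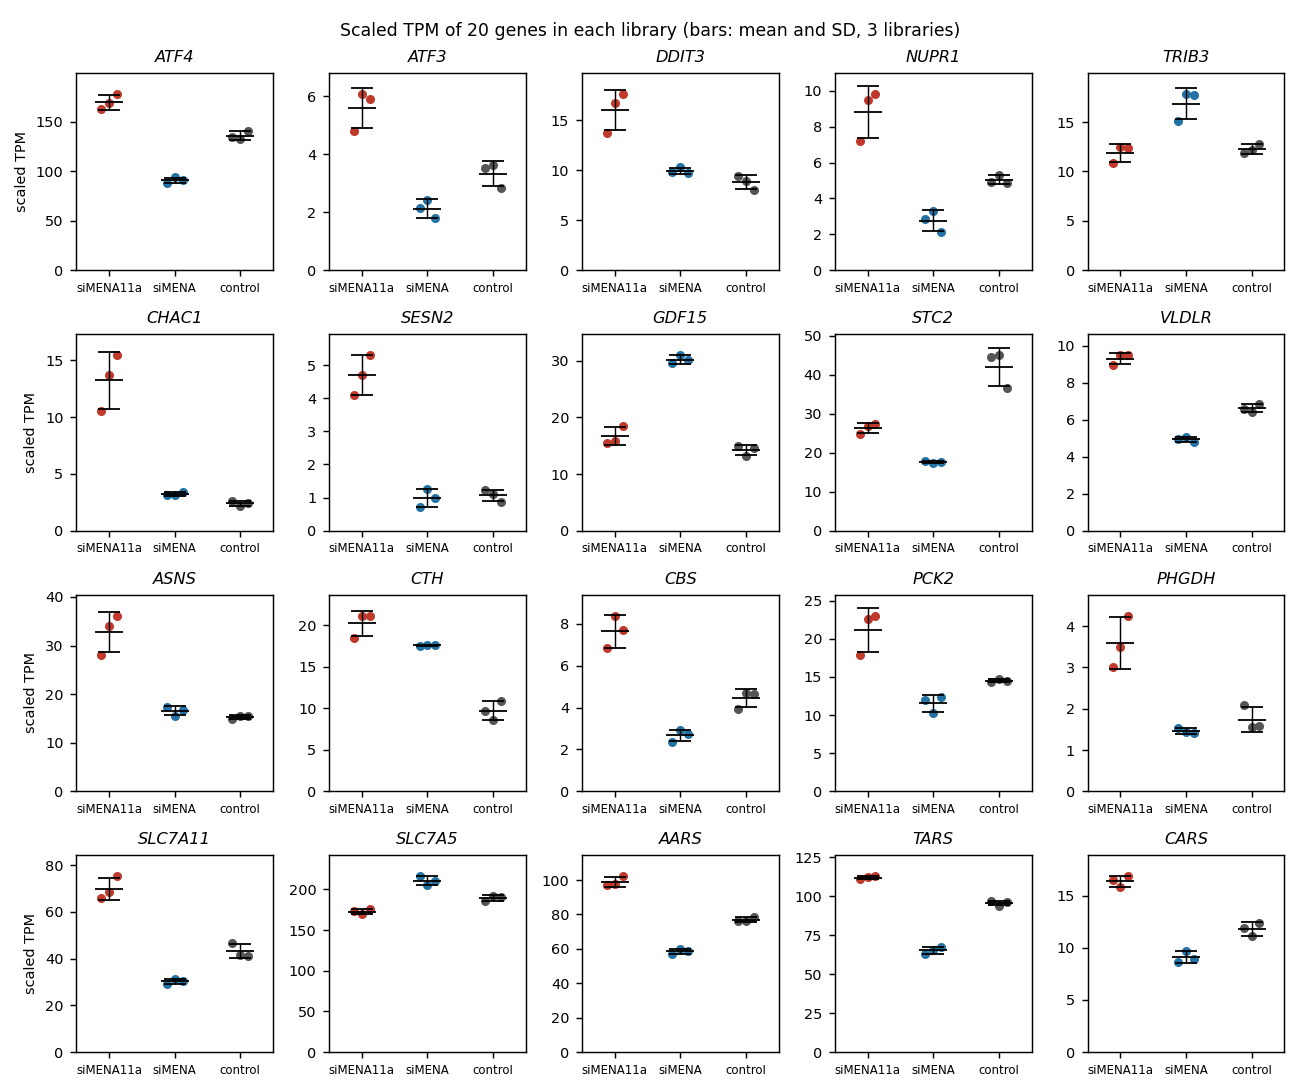
Scaled TPM (y axis, linear, from 0) of 20 listed genes in each of the 3 libraries of siMENA11a, siMENA and control, with horizontal bars for the mean and SD. CHAC1 and SESN2 are high in the 3 siMENA11a libraries alone, TRIB3 and GDF15 are highest in siMENA, and STC2 is highest in control.

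Of 7 stress effectors and secreted or surface products, 5 were called higher and 1 lower under siMENA11a (median 0.26), and 2 higher and 2 lower under siMENA (median -0.08). The largest rise of a listed gene was that of CHAC1, which encodes an enzyme that cleaves glutathione. It was at 10.5, 13.7 and 15.5 scaled TPM in siMENA11a libraries, 3.11, 3.19 and 3.44 in siMENA libraries, and 2.66, 2.17 and 2.40 in control libraries. The lowest siMENA11a library stood far above every other library, and the log2 fold change was 2.22 ± 0.13 (adjusted p = 8.01e-07). Under siMENA the log2 fold change of 0.37 ± 0.13 was called (adjusted p = 0.0353), but the call ended with no filter on low values (adjusted p = 0.0677), with quantile normalisation (0.0681) and without control 2, control 3 or any of the 3 siMENA libraries (adjusted p of 0.0584 to 0.11). CHAC1 was 1.86 ± 0.13 higher in siMENA11a than in siMENA (adjusted p = 1.5e-06).

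SESN2, a sestrin that senses leucine and inhibits mTORC1, was at 4.11, 4.71 and 5.30 scaled TPM in siMENA11a, 0.729, 1.27 and 0.983 in siMENA, and 1.23, 1.09 and 0.881 in control. The siMENA11a libraries stood apart, by 1.73 ± 0.15 over control (adjusted p = 1.17e-05) and by 1.81 ± 0.15 over siMENA, and the siMENA and control libraries overlapped (-0.08 ± 0.15, adjusted p = 0.691). DDIT4, another mTORC1 inhibitor, averaged 37.1 ± 1.62 scaled TPM in siMENA11a, 28.5 ± 1.69 in siMENA and 31.0 ± 1.28 in control, a smaller rise of 0.26 under siMENA11a that was not called in TPM as deposited (0.13, adjusted p = 0.185). EIF4EBP1, which encodes the translation repressor 4E-BP1, averaged 58.6 ± 1.24, 56.2 ± 4.41 and 57.0 ± 2.17 scaled TPM in the same 3 groups and was called in no comparison, except for siMENA11a against siMENA without siMENA 1 (0.12, adjusted p = 0.0261).

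Secreted and surface products of the list moved in several directions. GDF15, a stress hormone of the TGF-beta family, was at 29.5, 31.0 and 30.1 scaled TPM in siMENA libraries, against 14.9, 13.2 and 14.6 in control libraries, a rise of 1.06 ± 0.068 (adjusted p = 2.39e-06), and like SESN2 it is also a known p53 target. In siMENA11a it was at 15.5, 15.9 and 18.5, and the call of 0.22 ± 0.068 against control (adjusted p = 0.0223) ended without control 2, without siMENA11a 3 (0.14, adjusted p = 0.0618) and in TPM as deposited. STC2, a secreted glycoprotein called stanniocalcin 2, was at 24.8, 26.9 and 27.3 scaled TPM in siMENA11a, 17.8, 17.4 and 17.6 in siMENA, and 44.6, 45.0 and 36.5 in control. Control libraries were highest throughout, and STC2 fell by 0.66 ± 0.075 under siMENA11a (adjusted p = 6.46e-05) and by 1.23 ± 0.075 under siMENA (log2 units; adjusted p = 1.76e-06), the largest fall of a listed gene in either. VLDLR, a lipoprotein receptor, averaged 9.32 ± 0.319 scaled TPM in siMENA11a, 4.95 ± 0.134 in siMENA and 6.62 ± 0.217 in control, and followed the order of ATF4 with log2 fold changes of 0.46 and -0.38.

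Short stretches of promoter sequence are shown for the 10 listed genes that hold the core of the C/EBP-ATF response element (CARE), the composite site bound by ATF4 with a C/EBP partner. The core was searched as TGATGNAA and its reverse complement TTNCATCA in 300 bases around each start, from 250 bases before it to 50 after it. Of the listed genes, 33 had a promoter in the RefSeq table of build GRCh38.p14, and 10 of the 33 (30.3%) held the core, against 156 of 10200 promoters of tested genes (1.53%) and 1003 of 27305 in the table (3.67%). The list was put together from reported ATF4 targets, so this share is not independent of it. A match is a string of letters and not a shown binding site. Capitals mark the core, and each stretch reads 5′ to 3′ along the gene.
ASNS: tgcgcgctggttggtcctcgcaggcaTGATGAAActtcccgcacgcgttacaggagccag
CHAC1: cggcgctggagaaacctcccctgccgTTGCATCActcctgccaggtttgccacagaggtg
ATF3: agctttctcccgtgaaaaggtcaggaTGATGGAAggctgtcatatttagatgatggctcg
AARS: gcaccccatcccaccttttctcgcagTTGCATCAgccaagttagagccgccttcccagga
CARS: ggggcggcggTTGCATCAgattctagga
TARS: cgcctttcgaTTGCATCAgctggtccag
SLC3A2: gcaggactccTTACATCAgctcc
IARS: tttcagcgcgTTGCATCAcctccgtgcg
SLC7A1: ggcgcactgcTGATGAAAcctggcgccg
NARS: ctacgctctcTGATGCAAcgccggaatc

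The stretches lie at chr7:97872443-97872502 on the minus strand for ASNS, chr15:40953236-40953295 on the plus strand for CHAC1 and chr1:212565190-212565249 on the plus strand for ATF3. Those of the synthetases lie at chr16:70289660-70289719 (AARS, minus), chr11:3057408-3057435 (CARS, minus), chr5:33440957-33440984 (TARS, plus), chr9:92293693-92293720 (IARS, minus) and chr18:57621805-57621832 (NARS, minus). Those of the transporters lie at chr11:62881726-62881748 (SLC3A2, plus) and chr13:29595664-29595691 (SLC7A1, minus). The core of ASNS begins 68 bases before the start, where its nutrient-sensing response element is known. It begins 209 bases before the start in CHAC1, 191 in ATF3, 187 in AARS, 13 in IARS and 2 in CARS, and 3, 8, 15 and 38 bases into the transcript in TARS, SLC7A1, NARS and SLC3A2. Of these 10 genes, ASNS, CHAC1, ATF3, AARS, CARS, TARS and SLC3A2 were called higher under siMENA11a, NARS was called lower, and IARS and SLC7A1 were not called. With the core were thus 7 of 21 risen genes that have a promoter sequence and 3 of 11 other tested genes. Sequences were not used here for NUPR1, EIF4EBP1, PSPH, SHMT2, ALDH1L2, GPT2, SLC7A11, GARS, SARS, MARS, YARS and LARS.

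Among enzymes of amino acid metabolism, ASNS and the enzymes of cysteine synthesis rose under siMENA11a. Of the 5 enzymes outside the serine and folate pathways, 4 were called higher under siMENA11a (median 0.72), and 1 higher and 2 lower under siMENA (median 0.11). ASNS makes asparagine and was at 28.1, 34.1 and 36.2 scaled TPM in siMENA11a libraries, 17.4, 15.5 and 16.8 in siMENA libraries, and 14.9, 15.5 and 15.5 in control libraries. The siMENA11a libraries were all above the others, by 1.06 ± 0.083 over control (adjusted p = 5.87e-06), and the siMENA value of 0.11 ± 0.083 was not called (adjusted p = 0.314).

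CTH and CBS, which encode the consecutive enzymes of transsulfuration from homocysteine to cysteine, diverged under siMENA. CTH was at 18.4, 21.1 and 21.1 scaled TPM in siMENA11a, 17.5, 17.6 and 17.6 in siMENA, and 9.63, 8.60 and 10.9 in control. Both knockdowns lay well above control, with log2 fold changes of 1.03 ± 0.079 (adjusted p = 5.49e-06) and 0.83 ± 0.079 (adjusted p = 2.82e-05). CBS was at 6.82, 8.38 and 7.71 scaled TPM in siMENA11a, 2.38, 2.91 and 2.72 in siMENA, and 3.95, 4.71 and 4.66 in control. It rose by 0.72 ± 0.098 under siMENA11a (adjusted p = 0.000204) and fell by 0.64 ± 0.098 under siMENA (adjusted p = 0.000526), with no overlap among the 3 groups.

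PCK2, the mitochondrial enzyme that turns oxaloacetate into phosphoenolpyruvate, was at 17.8, 22.6 and 23.0 scaled TPM in siMENA11a, 11.9, 10.3 and 12.4 in siMENA, and 14.4, 14.7 and 14.4 in control. Its rise of 0.52 ± 0.098 under siMENA11a (adjusted p = 0.00148) was larger than the spread, and its fall of 0.32 under siMENA (adjusted p = 0.0214) was not called in TPM as deposited (-0.24, adjusted p = 0.112), without control 2 or without siMENA 2. The PCK2 fall was also not called without small RNAs in the scaling (-0.23, adjusted p = 0.0842). GPT2, the mitochondrial alanine transaminase, was at 0.13 ± 0.057 under siMENA11a (adjusted p = 0.07) and 0.11 ± 0.057 under siMENA (adjusted p = 0.156), and was not called. Without small RNAs in the scaling both were called (0.22 and 0.21).

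The serine, glycine and folate enzymes did not move as a block, with 1 of the 4 tested called higher and 2 lower under siMENA11a, and none higher and 2 lower under siMENA. PHGDH, the enzyme at the head of serine synthesis, was at 3.00, 3.51 and 4.26 scaled TPM in siMENA11a libraries, 1.53, 1.44 and 1.41 in siMENA libraries, and 2.08, 1.56 and 1.57 in control libraries. It rose by 0.87 ± 0.13 under siMENA11a (adjusted p = 0.000362) from a low level, and siMENA gave -0.18 ± 0.13 (adjusted p = 0.282). PSAT1, the following enzyme of the pathway, was listed at no more than 0.125 scaled TPM in any of the 9 libraries and was not tested, while PSPH, the last, averaged 4.66 ± 0.174 scaled TPM in siMENA11a, 4.74 ± 0.0453 in siMENA and 4.94 ± 0.371 in control and was not called, except as lower in siMENA11a than in siMENA in TPM as deposited (-0.22, adjusted p = 0.0292). ALDH1L2, a mitochondrial folate enzyme, was listed at no more than 0.0568 scaled TPM in any library.

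MTHFD2, its abundant mitochondrial neighbour in folate metabolism, was at 142, 142 and 141 scaled TPM in siMENA11a, 112, 111 and 111 in siMENA, and 152, 159 and 159 in control. The groups did not overlap, and MTHFD2 fell by 0.49 ± 0.028 log2 units under siMENA (adjusted p = 1.09e-06) and by 0.14 ± 0.028 under siMENA11a (adjusted p = 0.0016). The change under siMENA11a was not called in TPM rescaled without small RNAs (-0.066, adjusted p = 0.113). Nor was it called with quantile normalisation (-0.083, adjusted p = 0.0667). SHMT2, which splits serine into glycine in mitochondria, averaged 35.8 ± 1.35 scaled TPM in siMENA11a, 33.5 ± 0.943 in siMENA and 39.1 ± 1.46 in control. Its falls of 0.12 under siMENA11a and 0.22 under siMENA were called, but that under siMENA11a ended without control 2 or 3, without siMENA11a 2 or 3 and under 2 other scalings. That under siMENA was not called in TPM as deposited (-0.13, adjusted p = 0.0893).

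Of the 7 transporters, 4 were called higher and 2 lower under siMENA11a (median 0.15), and 1 higher and 4 lower under siMENA (median -0.24). SLC7A11 had the largest change of them in both. It encodes the cystine importer xCT and was at 65.8, 68.5 and 75.2 scaled TPM in siMENA11a libraries, 29.2, 31.4 and 30.3 in siMENA libraries, and 46.5, 41.4 and 41.3 in control libraries. The groups did not overlap, and it rose by 0.69 ± 0.061 under siMENA11a (adjusted p = 1.2e-05) and fell by 0.50 ± 0.061 log2 units under siMENA (adjusted p = 0.000127). SLC3A2, the heavy chain shared by xCT and the leucine transporter, was at 125, 126 and 129 scaled TPM in siMENA11a, 104, 96.8 and 102 in siMENA, and 105, 99.4 and 102 in control, a rise of 0.31 ± 0.035 under siMENA11a (adjusted p = 6.66e-05). Under siMENA it was at -0.01 (adjusted p = 0.764), but with quantile normalisation it was called higher (0.12, adjusted p = 0.0365). The light chain of the leucine transporter, SLC7A5, had the highest control mean of all 45 genes and moved the other way. It was at 173, 169.6 and 175 scaled TPM in siMENA11a, 216, 206 and 211 in siMENA, and 186, 192 and 191 in control, with log2 fold changes of -0.13 ± 0.030 (adjusted p = 0.00432) and 0.15 ± 0.030 (adjusted p = 0.0024). The fall under siMENA11a was not called in TPM rescaled without small RNAs (-0.055, adjusted p = 0.227). With quantile normalisation it was not called either (-0.069, adjusted p = 0.109). The deposited table also lists the pseudogenes SLC7A5P1 and SLC7A5P2, with which reads can be shared.

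SLC1A5 and SLC1A4, which carry glutamine and small neutral amino acids, followed the order of ATF4. SLC1A5 averaged 69.9 ± 4.09 scaled TPM in siMENA11a, 44.2 ± 0.572 in siMENA and 60.8 ± 1.45 in control, with log2 fold changes of 0.20 and -0.46. SLC1A4 averaged 11.8 ± 0.600, 8.91 ± 0.308 and 10.6 ± 0.547 in these groups. The rises of both under siMENA11a (0.20 and 0.15) were not called in TPM as deposited (0.065 and 0.027), and that of SLC1A4 also ended without control 1, control 3, siMENA11a 2 or siMENA11a 3, with no filter, with the replicate block and in a fit on the groups compared (adjusted p of 0.0519, 0.0634 and 0.0572). The SLC1A4 fall under siMENA (-0.24) was not called in TPM as deposited (-0.15, adjusted p = 0.121) or without small RNAs in the scaling (-0.14, adjusted p = 0.0858). SLC7A1, the cationic amino acid transporter, fell by 0.28 under siMENA (adjusted p = 0.00163) and was not called under siMENA11a (0.096, adjusted p = 0.146), except without small RNAs in the scaling (0.18, adjusted p = 0.0285). SLC38A2, the sodium-coupled transporter induced by amino acid lack, averaged 141 ± 3.34 scaled TPM in siMENA11a, 163 ± 2.43 in siMENA and 156 ± 5.92 in control, with a call of -0.14 under siMENA11a (adjusted p = 0.00745) that ended without small RNAs in the scaling (-0.058) and with quantile normalisation (-0.069). Under siMENA it was at 0.064 (adjusted p = 0.154) and was called higher under 3 other scalings (0.15 to 0.22) and without control 3 (0.095).

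tRNA synthetases attach amino acids to their tRNAs, and the listed cytosolic ones changed by small steps. With XPOT, the exportin of tRNA, 8 of the 13 were called higher, 1 lower and 4 not under siMENA11a (median log2 fold change 0.18), and 1 higher, 8 lower and 4 not under siMENA (median -0.15). The direct comparison called 9 higher in siMENA11a than in siMENA and 2 lower, with a median of 0.36. AARS, which charges alanine, was at 96.9, 97.8 and 102 scaled TPM in siMENA11a libraries, 56.8, 60.0 and 58.6 in siMENA libraries, and 76.2, 76.1 and 78.6 in control libraries. It rose by 0.36 ± 0.033 (adjusted p = 1.7e-05) and fell by 0.39 ± 0.033 (adjusted p = 1.34e-05), with no overlap among groups.

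TARS, the threonine enzyme, was at 111, 112 and 113 scaled TPM in siMENA11a, 62.9, 65.8 and 67.4 in siMENA, and 96.8, 93.9 and 96.2 in control. Its fall of 0.55 ± 0.031 log2 units under siMENA (adjusted p = 1.32e-06) was larger than its rise of 0.23 ± 0.031 under siMENA11a (adjusted p = 0.000224), which was not called in TPM as deposited. CARS, the cysteine enzyme, was at 16.5, 15.8 and 16.8 scaled TPM in siMENA11a, 8.59, 9.71 and 8.93 in siMENA, and 11.9, 11.1 and 12.3 in control, with log2 fold changes of 0.46 ± 0.057 (adjusted p = 0.000113) and -0.36 ± 0.057 (adjusted p = 0.000671). GARS (0.37) and SARS (0.39) rose under siMENA11a by similar steps. WARS (0.25), which interferon also induces, YARS (0.18) and EPRS (0.13) rose less, and in TPM as deposited none of these 3 was called and EPRS stood at -0.0048. The EPRS call also ended without control 2, control 3 or siMENA11a 3. The same held with the replicate block (adjusted p = 0.0523) and in a fit on the groups compared (adjusted p = 0.0598). Under siMENA, SARS (-0.20) and WARS (-0.15) were called lower, neither of them under 3 other scalings, and the WARS call ended without any single siMENA library and without control 1 or control 2. With the replicate block WARS was not called either (adjusted p = 0.0503).

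NARS under siMENA11a and LARS under siMENA moved against most of the listed synthetases. NARS, the asparagine enzyme, averaged 58.4 ± 0.306 scaled TPM in siMENA11a, 63.4 ± 1.95 in siMENA and 68.1 ± 2.04 in control. It fell by 0.22 ± 0.033 under siMENA11a (adjusted p = 0.000422), and its siMENA value of -0.10 ± 0.033 (adjusted p = 0.0287) turned to 0.023 with quantile normalisation and was not called without control 1, control 2 or siMENA 1. That call also ended in TPM as deposited (-0.019, adjusted p = 0.804) and without small RNAs in the scaling (-0.0032, adjusted p = 0.949). The same held with the replicate block (adjusted p = 0.0509) and in a fit on the groups compared (adjusted p = 0.0577). LARS, the leucine enzyme, averaged 20.8 ± 0.791 scaled TPM in siMENA11a, 27.5 ± 0.845 in siMENA and 21.7 ± 0.654 in control, a rise of 0.33 ± 0.041 under siMENA (adjusted p = 0.000141) with no call under siMENA11a (-0.062, adjusted p = 0.23), except in TPM as deposited (-0.19, adjusted p = 0.0176). MARS fell by 0.31 under siMENA and was at 0.01 under siMENA11a. IARS lay within 0.01 of 0 on the log2 scale in both comparisons with control, but was called higher under siMENA with quantile normalisation (0.097, adjusted p = 0.0394) and without small RNAs in the scaling (0.098, adjusted p = 0.0426), and lower in siMENA11a than in siMENA in TPM as deposited (-0.21, adjusted p = 0.00528). XPOT was at 0.068 under siMENA11a and 0.011 under siMENA, and without small RNAs in the scaling was called higher under siMENA11a (0.15, adjusted p = 0.0283).

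Among synthetase genes outside the list, falls outnumbered rises under siMENA11a. Of 11 other cytosolic synthetase and scaffold genes 1 was called higher and 8 lower (9.1% and 72.7%), with a median log2 fold change of -0.22. Of 17 mitochondrial synthetase genes 2 were higher and 6 lower (11.8% and 35.3%), with a median of -0.04. Over all tested genes 27.9% were called higher and 27.7% lower. KARS, the lysine enzyme, fell by 0.72, the scaffold gene AIMP2 by 0.76 and RARS by 0.46, while DARS rose by 0.24. Under siMENA the other cytosolic genes counted 2 higher and 2 lower (median -0.01, with DARS at -0.45, AIMP2 at -0.23 and RARS at 0.20). The mitochondrial genes counted 7 higher and 3 lower (median 0.16, with MARS2 at 0.54). Of all tested genes 23.7% were higher and 25.8% lower under siMENA. These lists were chosen with earlier results of these data known, and the difference between them was not tested.

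**Figure D3:**
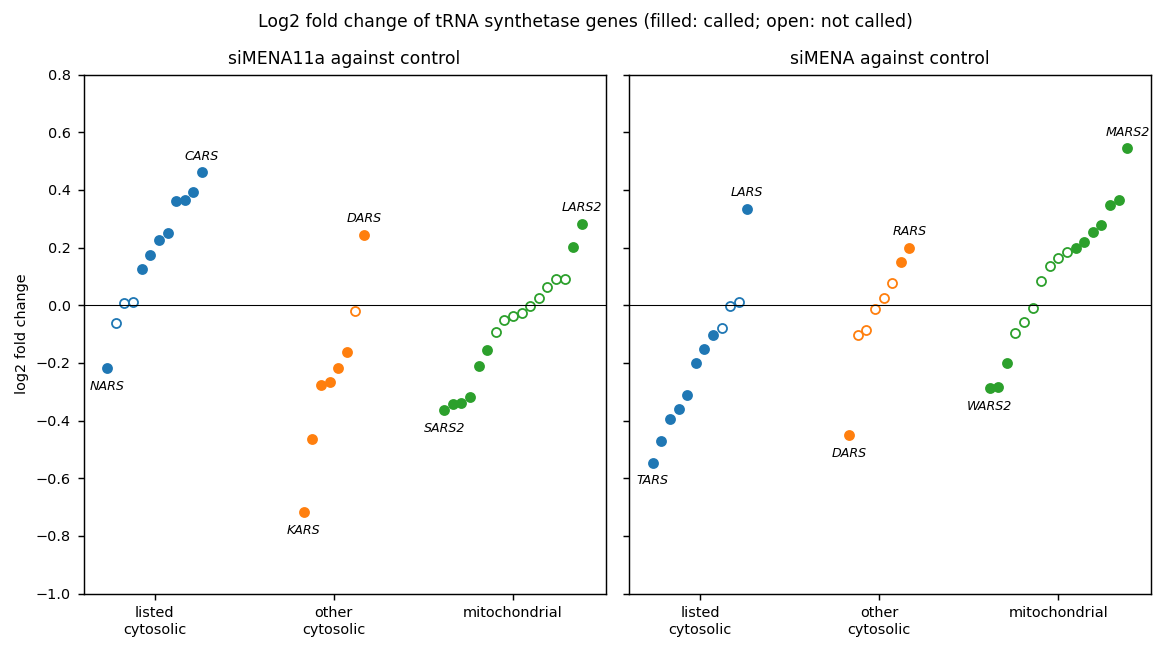
Log2 fold change (y axis) of each tRNA synthetase gene for siMENA11a against control (left) and siMENA against control (right), by whether it is a listed cytosolic, another cytosolic or a mitochondrial enzyme, with filled points for called genes and the highest and lowest gene of each set named. In the left panel the listed enzymes run from -0.22 (NARS) to 0.46 (CARS) and the other cytosolic ones from -0.72 (KARS) to 0.24 (DARS), and in the right panel the listed enzymes run from -0.55 (TARS) to 0.33 (LARS).

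A set of genes upstream of ATF4 was called about as often as all tested genes. It holds the eIF2 kinases, phosphatase subunits, an eIF2 subunit, eIF2B subunits and related factors. Of 16 tested genes of this set, 5 were higher and 4 lower under siMENA11a (median 0.05), where 27.9% and 27.7% of all genes were, and 4 higher and 5 lower under siMENA (median -0.08), where 23.7% and 25.8% were. EIF2AK2 encodes PKR, the eIF2 kinase activated by double-stranded RNA and itself induced by interferon. It averaged 46.1 ± 1.27 scaled TPM in siMENA11a, 21.3 ± 0.743 in siMENA and 21.3 ± 0.887 in control, a rise of 1.10 under siMENA11a and a log2 fold change of 0.00 under siMENA. EIF2AK1, the haem-regulated kinase HRI, was at 0.31 under siMENA11a and -0.34 under siMENA, both called. The kinase genes EIF2AK3 and EIF2AK4 were called higher under siMENA (0.23 and 0.11) and were not called under siMENA11a. No kinase or phosphatase gene of the set was called lower under siMENA11a. The genes of the set that were called lower there encode subunits of eIF2 or eIF2B. PPP1R15A, the stress-induced subunit GADD34 that directs dephosphorylation of eIF2, rose by 0.25 under siMENA11a, fell by 0.31 under siMENA and was 0.56 higher in siMENA11a than in siMENA. The eIF2B subunit gene EIF2B2 fell by 0.40 and EIF2B3 by 0.39 under siMENA11a, and EIF2B2 by 0.15 under siMENA. Transcript levels do not show the activity of these kinases.

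A further list of reported ATF4 targets, not among the 45, was mixed. Of 25 tested, 11 were higher and 6 lower under siMENA11a (median log2 fold change 0.08), where 27.9% and 27.7% of all genes were. Under siMENA 7 were higher and 10 lower (median -0.05), where 23.7% and 25.8% of all genes were. Between the knockdowns 15 were higher and 4 lower in siMENA11a (median 0.27), where 29.5% and 29.2% of all genes were. Under siMENA11a the sestrin gene SESN1 rose by 0.68, the glycine transporter gene SLC6A9 by 0.59 and ASS1, an enzyme of arginine synthesis, by 0.56, while the amino acid transporter gene SLC38A1 fell by 1.11 and the chloride exchanger gene CLCN3 by 0.61. Under siMENA the angiogenic factor gene VEGFA fell by 0.62, FAM129A by 0.87 and CLCN3 by 0.89, while SESN1 rose by 0.53 and SLC38A1 by 0.11. VEGFA was called higher under siMENA11a, by 0.20.

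Words of 7 bases found in the transcript targeted by the siRNAs were looked for in the 3' UTRs of GENCODE 29, since an siRNA can lower other mRNAs through such short matches. The siRNA sequences themselves were not used here. From exon 11a came CAAGGAA with 1 further word, both picked earlier because their carriers fell in these data. They occurred in 0 of the 7 listed genes called lower under siMENA11a and in 8 of the 26 called higher (CARS, CBS, CHAC1, NUPR1, SESN2, SLC1A4, VLDLR and WARS). Over all tested genes they occurred in 32.8% of those called lower and 20.8% of those called higher. From the rest of ENAH came CAGAATA with 3 further words, picked in the same way for siMENA. They occurred in 6 of the 22 listed genes called lower under siMENA (AARS, ATF3, CEBPG, MARS, NARS and SLC7A11) and in 0 of the 6 called higher. Over all tested genes they occurred in 40.8% of those called lower and 23.3% of those called higher. Over all genes searched, called or not, the shares were 25.7% for the exon 11a words and 30.0% for the others. Over the listed genes they were 25.6% and 16.3%. As carriers that fell guided the choice of words, the shares among called genes are not independent of it. The part of these words in the changes was not tested.

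Within the siMENA11a group the stress genes moved together between libraries. Library 1 held the lowest of the 3 values for 35 of the 43 tested genes (81.4%) and library 3 the highest for 30 (69.8%), where over all tested genes the shares were 35.7% and 35.8%. The median deviation of the listed genes from their group mean was -0.076, 0.007 and 0.057 on the log2 scale in libraries 1, 2 and 3, and between -0.00034 and 0.0016 over all genes. In siMENA, library 1 was lowest for 25 (58.1%, against 40.4% of all genes), and in control no library was lowest for more than 18. The siMENA11a libraries also differed in size factor, with 0.886 in library 1, 0.909 in library 2 and 0.973 in library 3, and the part of the scaling in this spread was not tested. Without siMENA11a 1 the counts against control were 26 higher and 6 lower.

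**Figure D4:**
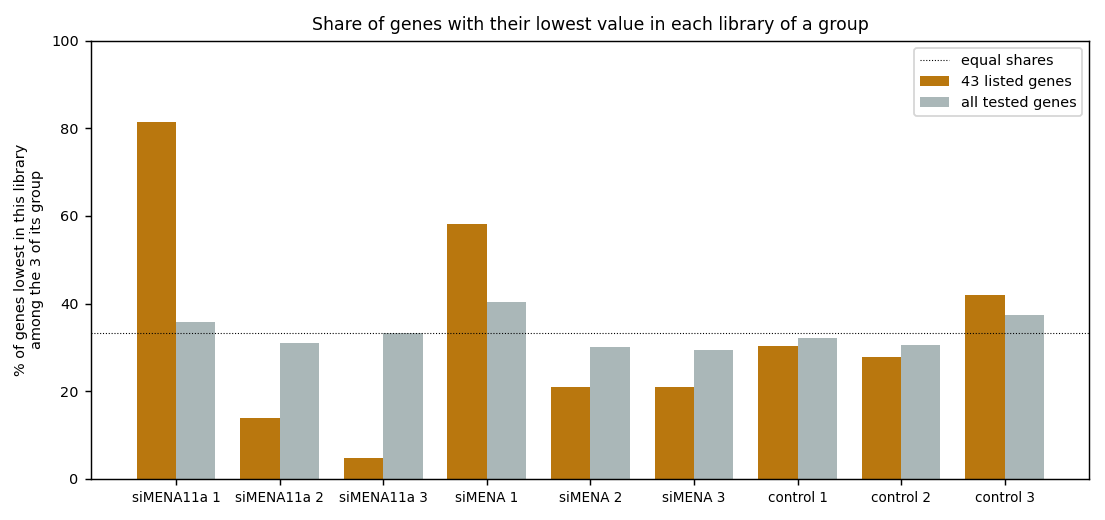
Percentage of genes (y axis, from 0) whose lowest value of the 3 libraries of a group lies in the library named on the x axis, for the 43 listed genes and for all tested genes, with a dotted line at equal shares. The bar of the listed genes stands at 81.4% in siMENA11a library 1, against 35.7% for all tested genes.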

How the data were processed

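RNA of 9 H2030 libraries was depleted of ribosomal RNA, made into stranded libraries and sequenced as read pairs, per the labels' protocols. The authors deposited 1 table of TPM for 29972 genes with RefSeq transcript identifiers. Kallisto and GRCh37 are named without a role, per the submitters' processing notes. The sources used here name no counting settings and no use of strand. Depth cannot be read from TPM and is unknown, so no counting error is given. All 9 value columns were used.

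TPM were divided by median-of-ratios size factors over 12341 genes with a mean of at least 1 TPM and no 0. Genes whose scaled TPM averaged 0.5 or more, 13498 in number, entered 1 limma model (version 3.58.1, R 4.3.3) of the 3 groups on log2 values with a pseudocount of 0.5, with eBayes and a mean trend. Fold changes are on that scale, which understates those of low genes, and their errors are standard errors. Means and SDs are over 3 libraries. The fit was checked on simulated data with independent noise and few changed genes, in siMENA11a alone. That check cannot speak to the scaling between groups. Alternatives were other scalings, pseudocounts and filters, a replicate block, a fit on the groups compared, robust eBayes and leaving out each library. No pairing was used, because the labels do not say what a replicate number shares. Deviations of same-numbered libraries correlated at -0.096 to 0.10 across 9018 genes, which with 3 libraries a group does not settle whether they were paired. Between siMENA11a and siMENA all 3 correlations were positive (0.059 to 0.10). Whether same-numbered libraries shared a culture or batch is not stated.

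Every listed gene is named, and of each other list at most the 3 highest and 3 lowest called genes per comparison, with their values against control in the other knockdown where called. The listed genes and the other lists were chosen with earlier results of these data known.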

Additional observations from a re-analysis of the deposited data

How the results depend on the processing

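More listed genes were called higher than lower under siMENA11a, and more lower than higher under siMENA, under every alternative run. The number lower under siMENA11a was 3 with quantile normalisation and 2 when TPM were rescaled without small RNAs, and the number higher under siMENA was 11 in the rescaled TPM. Over all genes, 3671 of 13476 and 2916 of 14618 were lower under siMENA11a in these fits. In the rescaled TPM 4802 of 14618 genes were higher under siMENA. Leaving out 1 library at a time gave 23 to 26 genes higher and 5 to 6 lower under siMENA11a, 5 to 7 higher and 19 to 22 lower under siMENA, and 28 to 30 higher and 5 to 7 lower for siMENA11a against siMENA. What a replicate number shares is not stated, and the main fit used no pairing. With the number as a replicate block, 24 genes were higher and 7 lower under siMENA11a, 7 and 21 under siMENA, and 28 and 7 between the knockdowns, and over all genes 7309, 6386 and 7732 were called, against 7503, 6674 and 7921 without it. Pseudocounts, robust eBayes and no filter moved no count of listed genes by over 1.5 times.

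The direction of some log2 fold changes reversed, and the cause was not tested. Of the reversed values, SLC3A2 with quantile normalisation, and IARS with quantile normalisation and in the rescaled TPM (siMENA against control) and in TPM as deposited (between the knockdowns) were called. In TPM as deposited, the log2 fold changes under siMENA11a were -0.093 for EIF4EBP1, -0.033 for SLC7A1, -0.12 for MARS, -0.0048 for EPRS, -0.12 for IARS and -0.064 for XPOT, and under siMENA 0.061 for EIF4EBP1, 0.024 for PSPH, 0.070 for SLC3A2, 0.0041 for EPRS and 0.082 for IARS. For siMENA11a against siMENA they were -0.052 for CEBPG, -0.15 for EIF4EBP1, -0.12 for SHMT2, -0.17 for GPT2, -0.017 for CTH, -0.0089 for EPRS, -0.21 for IARS and -0.16 for XPOT. With quantile normalisation they were 0.013 for CEBPB under siMENA11a, 0.089 for EIF4EBP1, 0.12 for SLC3A2, 0.023 for NARS, 0.0040 for EPRS and 0.097 for IARS under siMENA, and -0.033 for IARS between the knockdowns. In TPM rescaled without small RNAs they were 0.036 for CEBPB, 0.031 for TRIB3 and 0.015 for LARS under siMENA11a, 0.077 for EIF4EBP1, 0.041 for PSPH, 0.086 for SLC3A2, 0.020 for EPRS and 0.098 for IARS under siMENA, and -0.011 for IARS between the knockdowns. IARS under siMENA was 0.00083 in a fit on the groups compared. With 1 library left out, the values under siMENA11a ran from -0.13 to 0.039 for CEBPB and from -0.077 to 0.019 for TRIB3. Under siMENA they ran from -0.21 to 0.052 for SESN2, -0.087 to 0.016 for EIF4EBP1, -0.038 to 0.016 for SLC3A2, -0.018 to 0.036 for GARS, -0.031 to 0.017 for IARS and -0.019 to 0.040 for XPOT. For siMENA11a against siMENA they ran from -0.045 to 0.0040 for PSPH, -0.0012 to 0.051 for GPT2 and -0.0089 to 0.040 for IARS.

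The TPM give no depth, so genes near 0.5 TPM carry an unknown counting error.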

Other observations

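Counts of other stress programmes are given beside the shares of all tested genes, 27.9% called higher and 27.7% lower under siMENA11a, and 23.7% and 25.8% under siMENA. Of 18 targets of the IRE1 and ATF6 branches of the unfolded protein response, 4 were called higher and 7 lower under siMENA11a (median log2 fold change -0.05), and 3 higher and 11 lower under siMENA (median -0.22). Under siMENA11a the IRE1 gene ERN1 rose by 0.57, the co-chaperone gene DNAJB9 by 0.43 and XBP1, whose mRNA IRE1 splices, by 0.40, while EDEM1, a factor of glycoprotein degradation, fell by 0.88 and SDF2L1 by 0.54. Under siMENA ERN1 rose by 0.74 and XBP1 by 0.34, while the chaperone gene HSP90B1 fell by 0.63 the disulfide isomerase gene PDIA6 by 0.50, SDF2L1 by 0.25 and EDEM1 by 0.24.

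Of 16 NRF2 antioxidant targets, 6 were higher and 6 lower under siMENA11a (median -0.06), and 3 higher and 5 lower under siMENA (median -0.04). AKR1B10, an aldo-keto reductase gene, rose by 1.13 under siMENA11a and TXNRD1, which encodes thioredoxin reductase, fell by 0.51. Of 14 tested p53 targets, a list that shares SESN1 with the further ATF4 targets, 4 were higher and 2 lower under siMENA11a (median 0.07) and 3 higher and 5 lower under siMENA (median -0.04). BTG2, an antiproliferative gene, rose by 0.77 and ZMAT3 fell by 0.83 under siMENA.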
